A study of Mus musculus with 6 samples.

Results

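The Lyve1-negative MHC class II macrophages were 189 of 8804 kept cells in 6 single-cell libraries. Barcodes with under 500 genes, or with over 10% of UMIs (unique molecular identifiers, 1 per captured mRNA molecule) on mitochondrial genes, were left out, which kept 8804 of 17560 deposited barcodes. A kept cell was selected on 13 genes. It had 0 UMIs of Lyve1, of the dendritic cell lectin Cd209a and of the microglial genes P2ry12 and Tmem119, at least 10 UMIs in all of the MHC class II genes H2-Aa, H2-Ab1 and H2-Eb1, and a UMI of at least 3 of the 6 macrophage genes Ms4a7, Pf4, C1qa, C1qb, Mrc1 and Stab1. Since these genes chose the cells, their values are a description and were not tested. The cells were compared with Lyve1-positive macrophages, which had at least 1 UMI of Lyve1 and met the same conditions on the other genes except that on MHC class II (144 cells). They were also compared with Cd209a-positive cells, which had at least 1 UMI of Cd209a, at least 10 MHC class II UMIs and 0 UMIs of Lyve1, P2ry12 and Tmem119, and were chosen without the 6 macrophage genes (293 cells).

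Border macrophages are the resident macrophages of the meninges and of the spaces around brain vessels, outside the tissue in which microglia live. They are usually split by surface proteins into a scavenging type with the hyaluronan receptor Lyve1 and a type without it that carries MHC class II, the proteins that present peptides to CD4+ T cells. MHC class II genes are switched on together by the transactivator Ciita, and the invariant chain Cd74, the exchange factor H2-DM and lysosomal proteases load the peptide. In the dura, macrophages of the second type are known to be renewed in part from blood monocytes, which carry the chemokine receptor Ccr2.

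The libraries came from untreated adult wild-type C57BL6 mice and were made with the 10x Genomics Chromium system. In 4 cortical surface-associated libraries (CSA1 to CSA4), cells were freed by enzyme from the surface of the dissected dorsal cortex, and in 2 bone-associated libraries (BA1 and BA2) from meningeal tissue taken off the inside of the skull, labelled as dura and skull. Each library pooled tissue of several mice of both sexes, so the library is the replicate and the spread between mice was not seen. Cells were sorted as DRAQ5-positive and propidium iodide-negative, that is as viable, without a marker of immune cells, and the study states that the mice were not perfused, so blood cells can be present. The sample labels describe papain dissociation of the ventricular-subventricular zone, whereas the study's methods describe collagenase D and dispase II, and the preparations were assigned by titles and tissue labels.

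The MHC class II macrophages numbered 16, 18, 46 and 72 in CSA1 to CSA4 and 7 and 30 in BA1 and BA2. Their median depth was 11977, 10883, 6428 and 6872.5 UMIs in CSA1 to CSA4 and 13227 and 11143 in BA1 and BA2. The 4 cortical surface libraries fell into pairs that no label explains. Hemoglobin genes took 84.6% and 71.9% of all UMIs in the barcodes of CSA3 and CSA4 and at most 0.52% in the other 4 libraries, and their kept cells were shallower (median 5724 and 5498 UMIs against 9391 and 9599 in CSA1 and CSA2). Within the MHC class II macrophages the share of hemoglobin UMIs was 3.64% and 2.17% in CSA3 and CSA4, and in CSA3 1 cell held 6344 of the 6875 Hbb-bs UMIs. The Lyve1-positive macrophages of the same libraries held more, 18.0% and 32.2%. The pairs also differed in genes of the heat shock response within the MHC class II macrophages. The inducible chaperone Hspa1a, whose counts can be split with its near-identical neighbour Hspa1b, stood at 3141, 3164, 259.7 and 733 CPM (UMIs of a gene scaled to the same total in every library) in CSA1 to CSA4. Libraries shared at most 9 barcodes, none of them of an MHC class II macrophage, and 3 of the 189 cells were most like simulated doublets and were kept.

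All levels are CPM of the UMIs of a library's cells added together and scaled by TMM, a factor that sets the bulk of genes equal between sums, and are listed in the order CSA1, CSA2, CSA3, CSA4 or BA1, BA2. The genes used for selection separated the cells widely. The summed UMIs of the 3 MHC class II genes had a median of 302 per cell (range 10 to 849), and 169 of 189 cells had at least 100. Just inside the limit were 5 cells with 10 to 19 UMIs, and just outside it a single cell with 5 to 9. Another 107 macrophages without Lyve1 had none, at a median depth of 2319 UMIs, and 18 had 1 to 4. H2-Eb1 stood at 12675, 17675, 13721 and 15165 CPM in the cortical surface libraries and at 8667 and 10538 in the bone-associated libraries, against 2.68, 9.53, 538 and 402 in Lyve1-positive macrophages of CSA1 to CSA4. The 6 macrophage genes were less even. C1qb and C1qa, subunits of complement C1q, were found in 188 and 185 of the 189 cells, the mannose receptor Mrc1 in 167, the platelet factor Pf4 in 116, the membrane protein Ms4a7 in 90 and the scavenger receptor Stab1 in 78. Ms4a7, a usual marker of border macrophages, had a UMI in 38.8% of the cortical surface cells and 83.8% of the bone-associated cells, against 89.6% of all Lyve1-positive macrophages. Its level was 141, 181, 120.1 and 110.1 CPM in CSA1 to CSA4 and 607 and 678 in BA1 and BA2. The label of a border macrophage thus rested on C1q and Mrc1 in most cells and on Ms4a7 in fewer than 50%. Of the members, 53 had exactly 3 of the 6 genes and 42 had all 6, while 31 other cells fell short by 1 gene.

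The cells that the microglial genes kept out were almost as many as the members. Of cells that met every other condition, 162 had a UMI of P2ry12 or Tmem119, 118 of them only 1 or 2 such UMIs, and 125 of them had a UMI of Ccr2. In the cortical surface libraries these were 133, 96 and 120 cells (all, with 1 or 2 such UMIs, with Ccr2), and in the bone-associated libraries 29, 22 and 5. Their median MHC class II sum was 270.5 UMIs, within the range of the members. With up to 2 such UMIs allowed, which also gave BA2 enough cells to enter, the comparison with Lyve1-positive macrophages described further on gave 846 genes higher and 759 lower. Lyve1 kept out 8 further cells and Cd209a 33.

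The promoters of MHC class II genes carry a shared block of short boxes, of which the Y box holds the letters CCAAT in reverse. The letters TGATTGG were searched on both strands of the 300 bases around each gene's start (250 before, 50 after) in RefSeq sequences of GRCm38.p6. They were present for 7 of 8 MHC class II genes with an entry (H2-Aa, H2-Eb1, H2-Eb2, H2-DMb1, H2-DMb2, H2-Oa and H2-Ob, not H2-DMa) and for none of 8 other genes named in this text (Ctss, Ccr2, Lgmn, Lgals3, Tnip3, Cx3cr1, Cd163 and F13a1), against 7.82% of all 32851 windows. A match is a description and not a shown site. The 4 stretches run from 110 to 21 bases before the start and are shown for 2 genes that chose the cells (H2-Aa and H2-Eb1) and for 2 tested ones (H2-DMb1 and H2-Ob), with the searched letters in capitals.
H2-Aa (chr17:34287844-34287933, minus strand): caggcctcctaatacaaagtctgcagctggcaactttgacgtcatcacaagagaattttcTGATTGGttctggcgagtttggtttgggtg
H2-Eb1 (chr17:34305757-34305846, plus strand): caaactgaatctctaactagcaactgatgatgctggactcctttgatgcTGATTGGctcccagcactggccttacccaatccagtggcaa
H2-DMb1 (chr17:34153081-34153170, plus strand): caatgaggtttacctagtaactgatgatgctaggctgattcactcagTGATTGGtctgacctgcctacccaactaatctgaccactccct
H2-Ob (chr17:34238795-34238884, plus strand): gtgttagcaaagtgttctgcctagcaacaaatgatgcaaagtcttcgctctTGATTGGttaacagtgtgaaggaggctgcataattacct

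The share of MHC class II macrophages among all kept cells was 2.15%, 1.44%, 4.17% and 3.21% in CSA1 to CSA4 (2.74% ± 1.20, SD, n = 4) and 0.727% and 1.20% in BA1 and BA2 (0.963% ± 0.334, SD, n = 2). Every cortical surface library lay above both bone-associated libraries, but the exact 95% binomial interval of CSA2 (0.854% to 2.26%) held the value of BA2. The difference of 1.78 percentage points had p = 0.133 in an exact two-sided permutation test over 15 arrangements of the libraries. Among macrophages (MHC class II, Lyve1-positive, and those with neither) the order was the opposite. The MHC class II cells were 23.9%, 26.5%, 36.8% and 48.6% of macrophages in CSA1 to CSA4 and 77.8% and 71.4% in BA1 and BA2. The bone-associated mean was higher by 40.7 percentage points (exact permutation p = 0.0667), the smallest p this design allows. The bone-associated shares rest on 9 and 42 macrophages, since those libraries held 0 and 7 Lyve1-positive cells. Intervals cover counting error only.

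**Figure D1:**
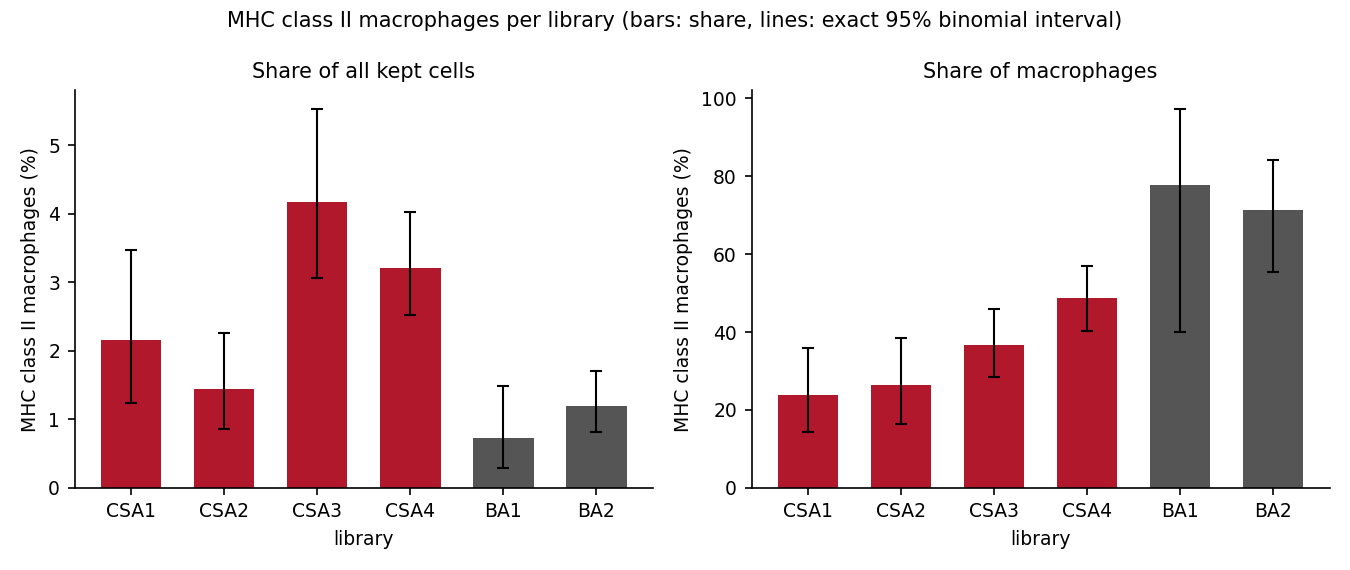
Percent of MHC class II macrophages among all kept cells (left) and among gated macrophages (right) in each library, with exact 95% binomial intervals as lines (red: cortical surface, grey: bone-associated). The bone-associated libraries have the lowest shares of kept cells (0.727% and 1.20%) and the highest shares of macrophages (77.8% and 71.4%).

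Markers of other cell types that the selection could hold were looked at as whole lists. Of 16 dendritic cell genes, the 3 genes Xcr1, Ccl22 and Itgae were at 0 in the MHC class II macrophages, the most abundant was the transcription factor Batf3, and the list summed to 185, 175, 240.3 and 167 CPM in CSA1 to CSA4 and 138 and 210.0 in BA1 and BA2, against 1012, 1407, 2424 and 1380.5 and 1856 and 2482 in Cd209a-positive cells. The defining genes Flt3 and Zbtb46 were found in 10 and 4 of the 189 cells. Of 8 microglial genes, Sall1 and Slc2a5 were at 0. Of 13 monocyte genes, lysozyme Lyz2 led, the classical monocyte marker Ly6c2 was found in 8 cells (6 of them bone-associated) and Plac8 in 12 (10 bone-associated). Of the T or NK cell genes, Cd3e, Trac and Cd8a were at 0, and Gzma came from a single BA2 cell with 107 UMIs. The 5 endothelial genes, led by Plvap and none at 0, summed to 0, 16, 0 and 6.61 CPM in CSA1 to CSA4 and 27.6 and 244 in BA1 and BA2, and 1 BA2 cell held all 23 UMIs of the endothelial cadherin Cdh5 there. Mural cell genes, led by Acta2, summed to 53.6, 90.4, 6.49 and 4.4 CPM in CSA1 to CSA4, and to 1706, 1306, 209 and 303 in the Lyve1-positive macrophages. Of 8 B cell genes, Pax5 was at 0 and the most abundant was Ighm, at 219, 287, 295 and 209 CPM in CSA1 to CSA4 against 64.3, 61, 88.1 and 92.7 in the Lyve1-positive macrophages. It was higher in the former in that comparison, described further on (1.76 ± 0.21, adjusted p = 2.4e-07), and under all 22 alternatives to it. The list summed to 239, 329.7, 406 and 227 against 67, 83.9, 167 and 142 CPM, and 2 of the 189 MHC class II macrophages had UMIs of at least 3 of its genes. Counts without cells that carried a UMI of 11 B, T or dendritic cell genes are given beside the results they change, and the part of the other markers was not tested.

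Against Lyve1-positive macrophages of the same libraries, the MHC class II macrophages had far more RNA of Cd74, H2-DMa, H2-DMb1 and the chemokine receptor Ccr2. The lysosomal protease Ctss was higher, whereas Lgmn, Ctsb and Ctsd were lower. Tested genes of the Lyve1-associated list were lower, among them the scavenger receptor Cd163 and the growth factor Igf1, as was the iron exporter Slc40a1. The comparison used CSA1 to CSA4, each with at least 16 and 31 cells of the groups, with the library as a block. It leaves 3 residual degrees of freedom. Of 7067 tested genes, 759 were higher (10.7%) and 699 lower (9.89%) in the MHC class II macrophages at an adjusted p under 0.05 (edgeR quasi-likelihood test with Benjamini-Hochberg adjustment), and 446 and 497 of them by at least 1.3 on the log2 scale. The balance of the counts depended on scaling. With the totals of each sum taken without hemoglobin genes and without TMM, 464 genes were higher and 1345 lower, and the median over all genes moved from -0.05 to -0.41. Fold changes are log2 values ± standard error, relative to the bulk of genes.

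Of 9 tested genes of antigen presentation, 6 were higher, 1 was lower and 2 did not pass the test, with a median log2 fold change of 3.83 against -0.05 over all genes. Cd74, the invariant chain that guides MHC class II through the cell, stood at 28720.4, 36307, 28238 and 29938 CPM in the MHC class II macrophages and at 99.1, 301, 978 and 785 in the Lyve1-positive macrophages. The groups did not overlap, and among the Lyve1-positive macrophages CSA3 and CSA4 were the higher libraries (log2 fold change 6.18 ± 0.32, adjusted p = 3.3e-14). H2-DMa, which with H2-DMb1 forms the exchange factor for peptides, stood at 877, 1032, 1208 and 1248 CPM against 10.7, 5.72, 69.6 and 30.9 (5.53 ± 0.28, adjusted p = 3.3e-14). Ciita was at 122, 128, 198 and 96.9 CPM against 0, 0, 9.27 and 12.4 (5.17 ± 0.49, adjusted p = 2.3e-09), with a UMI in 46% of the 189 cells. H2-DMb1 (4.27 ± 0.24) and the protease Ctss, which trims the invariant chain (1.42 ± 0.12), were higher too, as was H2-Ob, with 20 UMIs against 1 (ratio 22.1-fold, 95% counting interval 3.53 to 915), whose call was lost without CSA3. The member that fell was Lgmn, the asparaginyl endopeptidase of lysosomes, at 409, 622, 487 and 557 CPM against 945, 1128, 839 and 1106 (-0.97 ± 0.14, adjusted p = 4.5e-06). Cd86, which costimulates T cells, did not pass the test (-0.35 ± 0.19, adjusted p = 0.218). These genes are known to be regulated together with those that chose the cells, so their direction is not independent of the selection.

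All 19 tested genes of the Lyve1-associated list were lower, with a median of -4.57. The list was drawn up with earlier results of these data known. Its genes are associated with Lyve1, the gene that split the groups. Cd209f, Fcna and Timd4 had 0 UMIs in the MHC class II macrophages and were tested only because the Lyve1-positive macrophages carried them. The direction of this list is thus not independent of the selection. The hemoglobin scavenger receptor Cd163 stood at 9.74, 58.5, 42.2 and 11 CPM in the MHC class II macrophages and at 356, 337, 394 and 321 in the Lyve1-positive macrophages (-3.66 ± 0.29, adjusted p = 5.2e-11). The transglutaminase F13a1 stood at 107, 128, 58.4 and 123 against 1152, 886, 1085 and 933 (-3.31 ± 0.19, adjusted p = 2.3e-13), and a UMI of it was still found in 36 of 152 cortical surface cells. In neither gene did the groups overlap. The growth factor Igf1 stood at 9.74, 5.32, 3.25 and 0 against 230.3, 202, 241 and 204 (-5.80 ± 0.40, adjusted p = 4.0e-12). The folate receptor Folr2 was at 0 in CSA1 and CSA2 and at 3.25 and 17.6 CPM in CSA3 and CSA4, against at least 204 in the Lyve1-positive macrophages (-5.41 ± 0.37, adjusted p = 2.9e-12). The smallest changes of the list were those of the transcription factor Maf (-1.68 ± 0.16), the endocytic adaptor Dab2 (-1.88 ± 0.14) and selenoprotein Selenop (-1.97 ± 0.15), so these genes were lower but not absent.

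**Figure D2:**
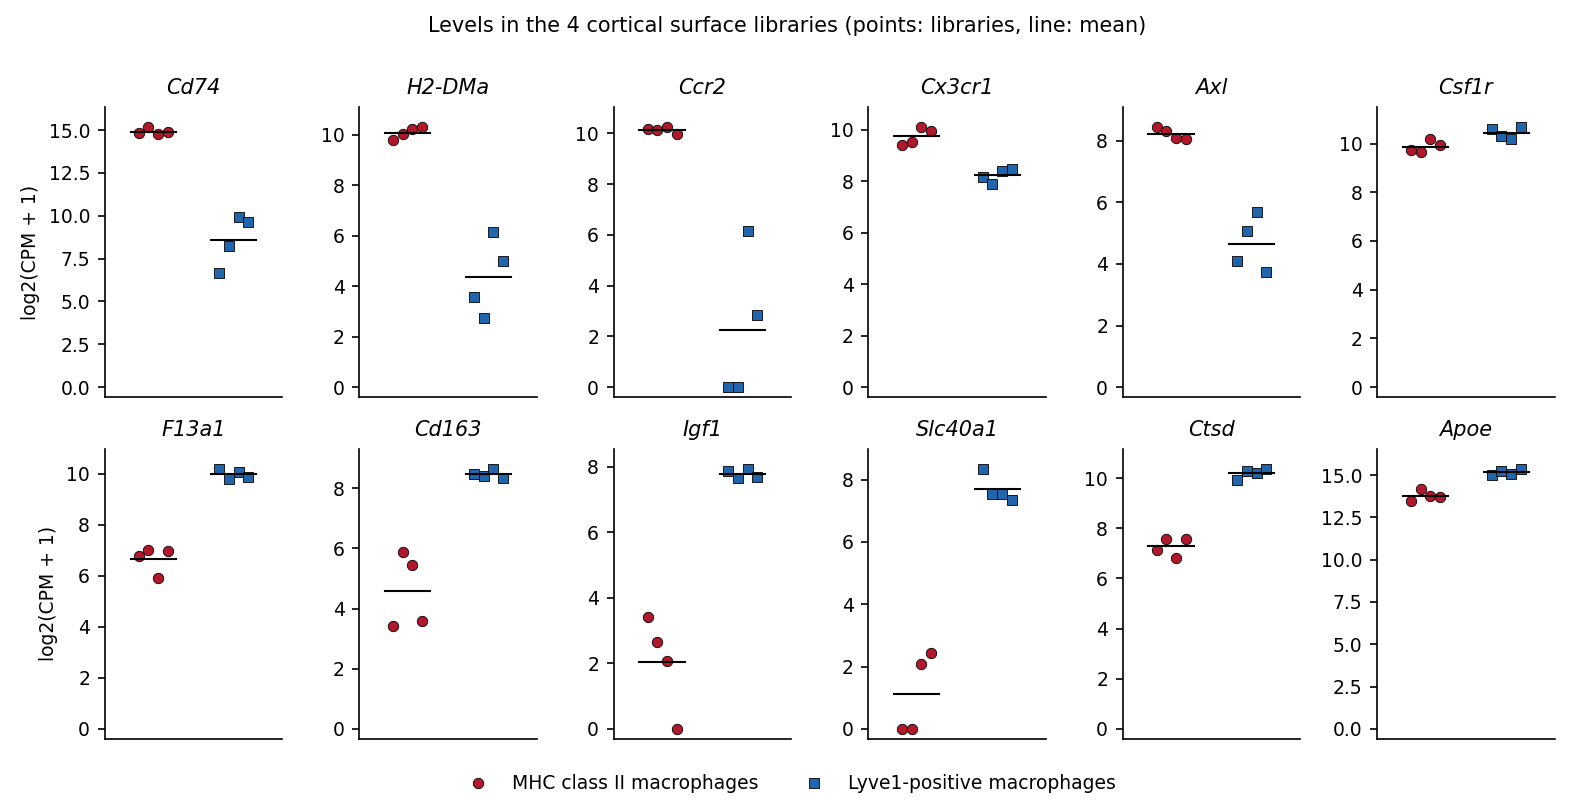
Level of 12 genes as log2(CPM + 1) in the MHC class II macrophages (red circles) and Lyve1-positive macrophages (blue squares) of CSA1 to CSA4, from left to right within a group, with the mean as a line. The groups do not overlap in any of the 12 genes, though they nearly meet for Csf1r, and Ccr2 had 0 UMIs in the Lyve1-positive macrophages of CSA1 and CSA2.

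The 10 largest increases among genes with at least 50 UMIs began with Tnip3, an inhibitor of NF-kB signaling, at 623, 1154, 211 and 220.2 CPM in the MHC class II macrophages and 0 UMIs in all 4 Lyve1-positive sums. Its 510 UMIs came to at least 188-fold more than the limit that 0 UMIs allow (3 UMIs over the group). The galactose-binding lectin Lgals3 stood at 365, 271, 253 and 242 CPM and was also at 0 in the Lyve1-positive macrophages (at least 116-fold higher). It had a UMI in 43.4% of the cortical surface MHC class II macrophages, and in 22.4% against 0% of Lyve1-positive cells after both were thinned to 1500 UMIs. Against the Cd209a-positive cells both genes were lower (Tnip3 -1.60 ± 0.37, Lgals3 -1.58 ± 0.26). The survival gene Bcl2a1a, the paired receptors Sirpb1c and Pilra, the aspartic protease Napsa, the adaptor Sh2d1b1 and the phosphatase Ptpn7 were likewise at 0 in the Lyve1-positive macrophages, and higher by at least 19.9-fold (Ptpn7) to at least 65.9-fold (Bcl2a1a). The lectin receptor Klra2 and the mitochondrial calcium channel subunit Mcub had 1 UMI there, for ratios of 178-fold, 95% counting interval 31.4 to 7062 and 163-fold, 95% counting interval 28.9 to 6495. Bcl2a1a, Sirpb1c and Klra2 belong to families of near-identical copies between which counts can be split. A test required a UMI in more than 10% of cells of a group. These 10 genes met this limit only in the MHC class II macrophages, so their direction is not independent of that filter.

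The 10 largest decreases held 3 genes of the Lyve1-associated list, the lectins Cd209f and Fcna and the chemokine Ccl24, which attracts eosinophils. Ccl24 stood at 319, 488, 468 and 445 CPM in Lyve1-positive macrophages, against a single UMI in the MHC class II macrophages of CSA2 and none in the other 3 libraries, for a ratio of 496-fold, 95% counting interval 88.7 to 19645. Cd209f, from a family of similar genes, had 0 UMIs in the MHC class II macrophages and 450 in the Lyve1-positive (at least 136-fold lower), and Fcna was at least 44.1-fold lower. The matricellular gene Cyr61 (at least 92.7-fold lower), the endothelin receptor Ednrb (at least 60.4-fold), the cytokine Tslp (at least 46.2-fold), Auts2 (at least 25.1-fold), the gap junction gene Gja1 (at least 31.7-fold) and Syngr1 (at least 15.1-fold) also had 0 UMIs in the MHC class II macrophages. The peroxidase Gpx3 had 1 UMI (159-fold, 95% counting interval 28.1 to 6298). These 10 genes met the detection limit of the test only in the Lyve1-positive macrophages, so their direction is not independent of that filter. Several of these are also expressed by mural or mesenchymal cells, whose genes were higher in the Lyve1-positive macrophages. Acta2 stood there at 830.3, 694, 51 and 0 CPM, against 19.5, 53.2, 3.25 and 0 in the MHC class II macrophages (-4.34 ± 0.33, adjusted p = 3.4e-11), with both groups at 0 in CSA4. Its log2 fold change moved to -0.11 once cells with a UMI of a B, T or dendritic cell gene were left out of both groups. The mesenchymal list summed to 319, 301, 139 and 12.4 CPM in the Lyve1-positive macrophages and to 14.6, 31.9, 6.49 and 2.2 in the MHC class II macrophages. The part of such RNA in these decreases, and in those of other lists given further on, was not tested. Gja1 lost its call with up to 2 UMIs of P2ry12 and Tmem119 allowed and BA2 thereby included (log2 fold change -1.83).

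Among receptors for chemokines and other attractants, 4 of 8 tested genes were higher and 2 lower. Ccr2, which monocytes use to leave the marrow, stood at 1154, 1122, 1205 and 1004 CPM in the MHC class II macrophages and at 0, 0, 69.6 and 6.18 in the Lyve1-positive macrophages (6.39 ± 0.41, adjusted p = 1.2e-12). The values of the former lay within a narrow range, and the latter were at 0 in CSA1 and CSA2 and highest in CSA3. A Ccr2 UMI was found in 139 of 152 cortical surface MHC class II macrophages, and over all libraries in 162 of 189 of them against 1.39% of Lyve1-positive cells. After thinning to 1500 UMIs the shares in the cortical surface libraries were 67.1% and 0.806%. The fractalkine receptor Cx3cr1 stood at 677, 739, 1094 and 989 against 287, 240.2, 338 and 352 CPM (1.50 ± 0.15, adjusted p = 6.8e-09). Of the 189 cells, 147 had a UMI of Ccr2 and of Cx3cr1, and 143 had a UMI of Ccr2 and of Mrc1. Each gene alone was found in most cells (Ccr2 in 162, Cx3cr1 in 169 and Mrc1 in 167), so these overlaps alone do not link the genes. The lower receptors were Ccr1 (-1.45 ± 0.22) and the C5a receptor C5ar1 (-1.11 ± 0.21). C5ar1 lost its call with cells thinned to 1500 UMIs (adjusted p = 0.221).

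Chemokine ligands went both ways, with 6 of 12 tested genes higher and 5 lower. The lower ones were Ccl2, Ccl7, Ccl8, Ccl12 and Ccl24, the last given above. Ccl2 stood at 92.5, 314, 35.7 and 57.2 CPM in the MHC class II macrophages against 568, 684, 334 and 352 in the Lyve1-positive macrophages (-2.22 ± 0.24, adjusted p = 2.4e-08), and Ccl7 at 29.2, 42.5, 9.74 and 2.2 against 369.6, 924, 139 and 679.7 (-4.90 ± 0.34, adjusted p = 4.3e-12). Ccl8 (-5.77 ± 0.39) and Ccl12 (-2.38 ± 0.20) fell too. Higher were Ccl4, the most abundant of the list (1.96 ± 0.31), Ccl6 (2.87 ± 0.22) and Ccl9 (1.93 ± 0.21). The neutrophil attractant Cxcl2 (3.54 ± 0.32) and Cxcl16 (2.74 ± 0.21), the membrane-bound ligand of Cxcr6, were higher too. Cxcl14, a chemokine of skin and glia, stood at 82.8, 117, 143 and 154 CPM against 0, 53.4, 0 and 0 (2.83 ± 0.48, adjusted p = 4.1e-05), and a UMI of it was found in 38 of 152 cells. The inflammatory cytokine Il1b was higher (5.46 ± 0.39, adjusted p = 6.1e-12) but uneven, at 935, 1819, 114 and 227 CPM, with 9 of 46 cells carrying it in CSA3 and 14 of 18 in CSA2. Apart from Ccl4, whose ranges are not given here, Cxcl2 alone of these genes had overlapping ranges. Cxcl2 lost its call (1.73, adjusted p = 0.0518) when up to 2 UMIs of P2ry12 and Tmem119 were allowed, which also brought BA2 into the fit.

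Of 13 general macrophage genes, 3 were higher, 3 lower and 7 did not pass the test, with a median of 0.10. The survival receptor Csf1r stood at 857, 798, 1153 and 986 CPM in the MHC class II macrophages against 1548, 1287, 1155 and 1619 (-0.58 ± 0.14, adjusted p = 0.00344), with ranges that nearly met in CSA3, and lost its call without the library block. The receptor Mertk, which clears dying cells, was lower (-1.99 ± 0.38) and its relative Axl higher, at 346, 319, 273 and 264 against 16.1, 32.4, 51 and 12.4 CPM (3.43 ± 0.27, adjusted p = 3.5e-11). Adgre1, which encodes F4/80 (-0.49 ± 0.18, adjusted p = 0.0513), and Cd68 (-0.41 ± 0.15, adjusted p = 0.0532) did not pass the test. Adgre1 passed it under 10 of 22 alternatives and Cd68 under 6 of 22. Of 14 transcription factors 7 were higher, among them Runx3 (ratio 35.3-fold, 95% counting interval 11.7 to 174 from 3 UMIs in the Lyve1-positive macrophages), Irf5 (1.42 ± 0.23) and Zeb2 (0.78 ± 0.17). Irf5 lost its call with cells thinned to 1500 UMIs (adjusted p = 0.0959). Of 17 growth factor and ligand receptors 5 were higher and 6 lower. The TGF-beta receptor Tgfbr1 (2.34 ± 0.24) and the GM-CSF receptor Csf2ra (2.28 ± 0.24) were higher, and the neuropilins Nrp1 (-1.40 ± 0.18) and Nrp2 (-2.71 ± 0.45) and the Il4 receptor Il4ra (-1.24 ± 0.26) lower.

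Genes of the lysosome and of lipid handling went both ways, with 7 of 15 tested genes higher and 6 lower. The lysosomal proteases Ctsd (141, 191, 110.4 and 192 CPM in the MHC class II against 972, 1254, 1173 and 1304 in the Lyve1-positive macrophages, -2.92 ± 0.16, adjusted p = 1.3e-13) and Ctsb (-1.58 ± 0.12), the lysosome membrane protein Cd63 (-2.62 ± 0.17) and the lipid carrier Apoe (-1.38 ± 0.10) fell. The tetraspanin Cd9 (2.33 ± 0.29), lipoprotein lipase Lpl (2.91 ± 0.53) and the integrin Itgax (at least 16.9-fold, from 0 UMIs in the Lyve1-positive macrophages) were higher. In iron handling 4 of 7 genes were lower and 1 higher. The iron exporter Slc40a1 had 3 UMIs in the MHC class II macrophages against 321, 187, 185 and 161 CPM in the Lyve1-positive macrophages (ratio 85.8-fold, 95% counting interval 29.1 to 418). The heme-degrading genes Hmox1 (-1.54 ± 0.21) and Blvrb (-2.18 ± 0.18) fell. Of 6 complement genes 5 were lower with log2 fold changes of -0.44 (C1qc) to -6.06 (C4b), and none was higher. C1qc lost its call without the library block, with at least 4 macrophage genes required or without cells that carried a B, T or dendritic cell UMI (adjusted p up to 0.224). The scavenger receptors Colec12 (3 UMIs, ratio 68.6-fold, 95% counting interval 23.2 to 335) and Msr1 (-2.13 ± 0.31) and the Fc receptor Fcgrt (-2.17 ± 0.19) were lower, whereas the inhibitory lectin Clec12a (3.32 ± 0.23) and Fcgr4 (2.40 ± 0.45) were higher. Hmox1 kept its sign but lost its call when the library block was dropped (adjusted p = 0.0679).

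Genes that dissociation is known to induce were looked at too. Of 12 immediate-early genes 2 were higher and 2 lower, with a median of 0.12, and of 8 heat shock genes 1 was higher, Hspa1a (0.43 ± 0.15, adjusted p = 0.0442). That call was lost under 16 alternatives, among them leaving out CSA2, CSA3 or CSA4. Fos stood at 1290.4, 3063, 1419 and 1726 CPM in the MHC class II macrophages against 2277, 2565, 765 and 2082, and did not pass the test (adjusted p = 0.977). Of 9 interferon-induced genes 4 were higher and 1 lower, beside 10.7% and 9.89% of all tested genes. DESeq2 called 2 of the 9. Isg15 lost its call under 6 of 21 alternatives (adjusted p up to 0.653) and Irf7 under 2. Of 6 microglial genes 1 was higher and 2 were lower, Fcrls (-3.00 ± 0.17) and Sparc (-3.82 ± 0.45). Of 13 monocyte genes only 4 could be tested, and these were higher. Besides Ccr2 they were Lyz2 (1.04 ± 0.11), the calcium-binding protein S100a4 (ratio 68.1-fold, 95% counting interval 22.9 to 333) and Ms4a4c (25.8-fold, 95% counting interval 8.46 to 128), each from 3 UMIs in the Lyve1-positive macrophages, while Ly6c2 and Plac8 were too rare to be tested. A test required a UMI in more than 10% of cells of a group. Ccr2, S100a4 and Ms4a4c met this only in the MHC class II macrophages, so their direction is not independent of that filter. The same limit holds for the other genes given above with at most 3 UMIs in a group.

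**Figure D3:**
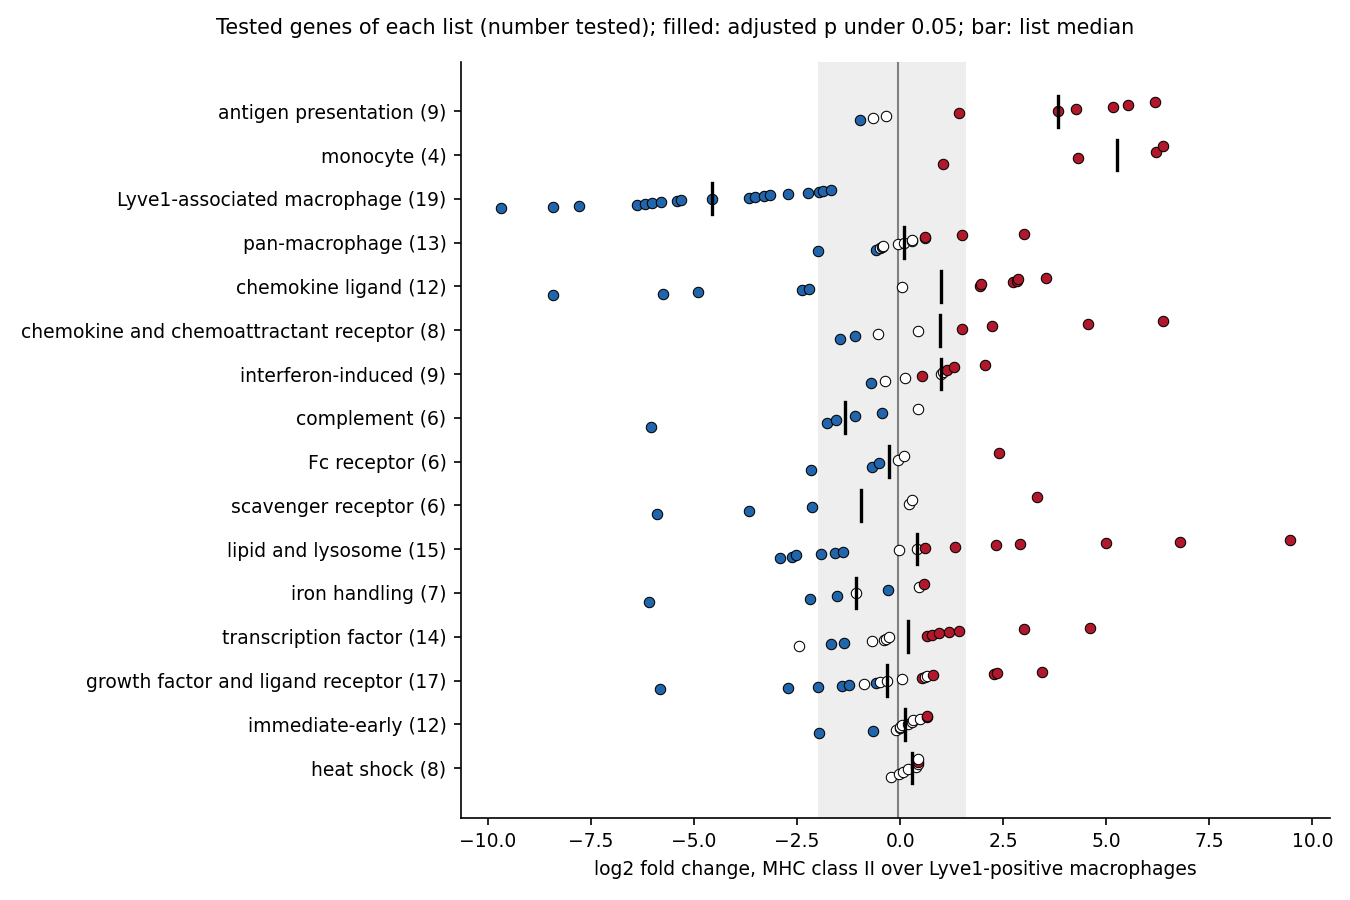
Log2 fold change of each tested gene (points) of 16 gene lists, MHC class II over Lyve1-positive macrophages, in CSA1 to CSA4. Filled points passed the test (red: higher, blue: lower), black bars are list medians, the grey line is the median of all 7067 genes (-0.05) and the grey band their 5th to 95th percentile. The 19 Lyve1-associated genes all lie left of the line, the antigen presentation and monocyte medians lie furthest right, and values at 0 UMIs in a group depend on the prior count of the fit.

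Between the preparations, the MHC class II macrophages of the cortical surface had more Ccr2, Cxcl14, Cd9 and Tgfbr1. Those of both bone-associated libraries had more Folr2, Igf1, Ccl2, Ccl7 and Ly6a, though Folr2 had only 3 UMIs in BA1. Only BA2 had at least 10 such cells in the bone-associated tissue, so 4 cortical surface libraries were tested against 1 library that was assumed to vary like them. Of 7016 tested genes, 51 were higher (0.727%) and 210 lower (2.99%) in the cortical surface. BA1, with 7 cells, was not used in the test. It lay beyond all 4 cortical surface libraries on the side of BA2 for 46 of the 51 genes (90.2%) and 168 of the 210 (80.0%), and these shares rest on the same cortical surface libraries as the calls. Of the genes that were not called, BA1 lay below all 4 cortical surface libraries in 37.7% and above them in 24.5%, whichever way BA2 went. The counts were fragile. They were 18 and 46 with DESeq2, 13 and 128 without cells that carried a B, T or dendritic cell UMI, and 0 and 0 with CSA3 and CSA4 alone against BA2, where 1 residual degree of freedom was left and 584 and 760 genes had an unadjusted p under 0.05. With CSA1 and CSA2 alone against BA2, at the same residual degree of freedom, they were 58 and 223. Leaving out CSA2 raised them to 86 and 350. With 2 preparations dissected differently and run as separate libraries, tissue and preparation cannot be told apart.

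Ccr2 stood at 1154, 1122, 1205 and 1004 CPM in CSA1 to CSA4 and at 423 and 442 in BA1 and BA2 (1.46 ± 0.38, adjusted p = 0.0414, cortical surface over BA2). All cortical surface values lay above both bone-associated values, but the call was lost under 7 alternatives, among them leaving out CSA3 or CSA4 (adjusted p = 0.119 and 0.128, and up to 0.155 over the 7). Cx3cr1 showed the same order, at 677, 739, 1094 and 989 against 395 and 328, and did not pass the test (1.54 ± 0.42, adjusted p = 0.0507), though it did under 12 of 21 alternatives. A UMI of both receptors was found in 132 of 152 cortical surface and 15 of 37 bone-associated cells. Cd9 stood at 248, 218, 354 and 374 against 0 and 47.6 (2.78 ± 0.48, adjusted p = 0.00309), and Tgfbr1 at 127, 197, 364 and 319 against 55.1 and 33.6 (3.04 ± 0.61, adjusted p = 0.00821). The lipid receptor Trem2 stood at 424, 436, 656 and 553 against 229.8 and 176 (1.68 ± 0.41, adjusted p = 0.0293, lost under 8 alternatives, among them leaving out CSA3 or CSA4). Cxcl14 stood at 82.8, 117, 143 and 154 against 0 and 11.2 (3.58 ± 0.59, adjusted p = 0.00226). In each of these genes, BA1 and BA2 lay below the lowest cortical surface library. Microglia, taken as cells with at least 10 UMIs of P2ry12 and Tmem119, numbered 40, 139, 158 and 390 in CSA1 to CSA4. There were 1 and 6 in BA1 and BA2, and the part of microglial RNA in these differences was not tested. Of the study's markers of dural macrophages, on which Ccr2 stands, the other 2 that could be tested went the other way. The lectin Clec4n stood at 4.87, 0, 6.49 and 17.6 against 55.1 and 75.6 (-2.86 ± 0.63, adjusted p = 0.0168, lost without cells that carried a B, T or dendritic cell UMI), and the galectin Lgals3 at 365, 271, 253 and 242 against 414 and 762 (-1.32 ± 0.32, adjusted p = 0.028, lost under 9 alternatives, among them leaving out CSA3 or CSA4).

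The largest increases in the cortical surface, among genes with at least 50 UMIs and no overlap with BA2, were Tnfsf13b, Ptgds, AU020206, F11r, Havcr2, Tmx4, Hepacam2, Nes, Cxcl14 and Alcam. Those with at most 3 UMIs in BA2 met the detection limit only in the cortical surface, so their direction is not independent of that filter. Tnfsf13b, the B cell survival factor BAFF, had 58 UMIs in the cortical surface cells and 0 in BA2 (at least 5.98-fold higher). It lost its call under 8 of 19 alternatives, among them leaving out CSA3, CSA4 or cells that carried a B, T or dendritic cell UMI. Prostaglandin D synthase Ptgds, an abundant product of leptomeningeal cells that can reach other droplets as free RNA, stood at 365, 803, 214 and 319 CPM against 18.4 and 5.6. A UMI of it was found in 87.5, 83.3, 54.3 and 51.4% of the MHC class II macrophages of CSA1 to CSA4 (median depth 11977, 10883, 6428 and 6872 UMIs) and in 60, 64, 4.43 and 4.36% of their microglia, cells with at least 10 UMIs of P2ry12 and Tmem119 that should lack it (median depth 7953, 8433, 6420.0 and 6483 UMIs). In the Lyve1-positive macrophages it stood higher still, at 4170.1, 5221, 705 and 575 CPM. The part of free RNA, from microglia or other cells, in the differences between preparations was not tested. The junction protein F11r stood at 151, 117, 182 and 163 against 9.19 and 8.4, and Havcr2, the inhibitory receptor Tim-3, at 24.3, 31.9, 55.2 and 63.8 against 18.4 and 2.8. Their ratios against the 3 and 1 UMIs of BA2 were 18.9-fold, 95% counting interval 6.35 to 92.3 and 17.6-fold, 95% counting interval 3.04 to 708. Havcr2 lost its call under 6 alternatives, among them leaving out CSA3, CSA4 or cells that carried a B, T or dendritic cell UMI. Nes lost its call without CSA3 or CSA4 and Tmx4 without CSA3. Without cells that carried a B, T or dendritic cell UMI, Nes, Tmx4 and Hepacam2 lost theirs. The adhesion molecule Alcam stood at 229, 101, 156 and 143 against 27.6 and 16.8 (3.31 ± 0.58, adjusted p = 0.00341).

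Of 16 tested genes of the Lyve1-associated list, 11 were lower in the cortical surface and none higher, with a median of -2.50 against 0.04 over all genes. DESeq2 called 3 of these 16 genes, and it called 3 of the 15 chemokine ligands, 2 of the 10 inflammatory cytokine genes and 4 of the 13 interferon-induced genes and 2 of the 6 monocyte genes given next. The bone-associated MHC class II macrophages, all without a Lyve1 UMI by selection, thus had more of a part of the Lyve1-associated genes, for some of them in BA2 alone. Folr2 stood at 0, 0, 3.25 and 17.6 CPM in the cortical surface and at 27.6 and 123 in BA1 and BA2 (-3.84 ± 0.64, adjusted p = 0.0024). Igf1 stood at 9.74, 5.32, 3.25 and 0 against 64.3 and 157 (-5.20 ± 0.60, adjusted p = 9.3e-05). The lectin Clec10a stood at 14.6, 90.4, 74.7 and 77.1 against 267 and 316 (-2.14 ± 0.43, adjusted p = 0.00821). In these genes both bone-associated libraries exceeded the cortical surface libraries. For Folr2 the BA1 value rested on 3 UMIs in 2 of 7 cells, and that of CSA4 on 8 UMIs in 2 of 72. The reductase Cbr2 was high in BA2 alone, at 0, 5.32, 3.25 and 15.4 against 9.19 and 297 (-5.09 ± 0.49, adjusted p = 1.7e-05), as was Ccl24, at 9.19 and 123 in BA1 and BA2. Maf (-0.16 ± 0.38, adjusted p = 0.892) and Dab2 (-0.59 ± 0.33, adjusted p = 0.396) did not pass the test.

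Of 15 chemokine ligands 8 were lower in the cortical surface and 1 (Cxcl14) higher. Ccl2 stood at 92.5, 314, 35.7 and 57.2 CPM in CSA1 to CSA4 and at 1176 and 2044 in BA1 and BA2 (-4.01 ± 0.58, adjusted p = 7.2e-04), and Ccl7 at 29.2, 42.5, 9.74 and 2.2 against 2142 and 1167 (-5.96 ± 0.51, adjusted p = 6.9e-06). In BA2, 20 of 30 cells had a UMI of Ccl2. Ccl8 was high in BA2 alone (9.19 and 235 in BA1 and BA2, at most 11 in the cortical surface, -5.30 ± 0.55, adjusted p = 3.5e-05). Ccl5 rested on few cells, since 5 of 30 BA2 cells held its 276 UMIs and 1 of them 184. Of 10 inflammatory cytokine genes 4 were lower and none higher, and 8 were lower and none higher once BA1 was admitted (libraries of at least 5 cells), a fit in which 296 of 7408 genes were lower (4.0%) and 103 higher (1.39%). Il10, an anti-inflammatory cytokine, had 106 UMIs in 7 BA2 cells, 1 UMI in all cortical surface cells and 0 in BA1 (ratio 343-fold, 95% counting interval 60.2 to 13672). The interleukin 1 antagonist Il1rn (-4.02 ± 0.63, adjusted p = 0.0014) and oncostatin M, Osm (-3.05 ± 0.49, adjusted p = 0.00188), were lower in the cortical surface too, while Il1b (-1.86 ± 0.78, adjusted p = 0.236) and Tnf (-1.89 ± 0.51, adjusted p = 0.0522) did not pass the test. Il1b passed it without CSA2 (-2.76, adjusted p = 0.00356), with no filter beyond 1 UMI (adjusted p = 8.8e-06) and with CSA1 and CSA2 alone (adjusted p = 0.0248).

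Of 13 interferon-induced genes 8 were lower in the cortical surface and none higher, with a median of -2.04. The surface protein Ly6a stood at 4.87, 5.32, 6.49 and 11 CPM against 55.1 and 148 (-4.08 ± 0.48, adjusted p = 9.3e-05), Irf7, a transcription factor of the interferon response, at 19.5, 90.4, 16.2 and 79.3 against 229.8 and 378 (-2.73 ± 0.48, adjusted p = 0.00353), and the ubiquitin-like Isg15 at 53.6, 128, 61.7 and 88.1 against 82.7 and 521 (-2.55 ± 0.35, adjusted p = 4.3e-04). BA1 went with BA2 for Ly6a and Irf7 and lay among the cortical surface libraries for Isg15. All 3 lost their call when at least 4 of the 6 macrophage genes were required. Ly6a also lost it without cells that carried a B, T or dendritic cell UMI, and Irf7 with cells thinned to 1500 UMIs. Of 6 monocyte genes, Ccr2 was higher and 3 were lower. Those were Ms4a4c (29.2, 85.1, 39 and 79.3 against 312 and 361, -2.48 ± 0.38, adjusted p = 0.00117), Ly6c2 (-3.82 ± 0.73, adjusted p = 0.00621) and Plac8 (-4.14 ± 0.92, adjusted p = 0.0172). Ly6c2 and Plac8 rested on 4 and 8 of 30 BA2 cells, and 6 of 37 bone-associated cells had both. Neither was called with DESeq2 (adjusted p = 0.850 and 0.867), and Ms4a4c lost its call when at least 4 macrophage genes were required.

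The 10 largest decreases in the cortical surface began with the stress-induced growth factor Gdf15, at 0 UMIs in all 4 cortical surface libraries and 165 and 305 CPM in BA1 and BA2 (BA2 at least 118-fold higher). Rgcc, a cell cycle regulator, was also at 0 in the cortical surface (at least 64.7-fold). The phosphatase Dusp2 had 2 UMIs there (123-fold, 95% counting interval 32.9 to 1034). Gdf15, Rgcc, Dusp2 and Il10 met the detection limit only in BA2, so their direction is not independent of that filter. The angiogenic factor Egfl7 stood at 0, 5.32, 6.49 and 4.4 against 0 and 140.0 (-4.77 ± 0.55, adjusted p = 9.3e-05). Egfl7 is an endothelial product, and the 1 BA2 cell with Cdh5 held 33 of its 50 UMIs in BA2, with 17 in 5 of the other 29 cells. The part of that cell in the call was not tested. Thrombospondin Thbs1 stood at 29.2, 5.32, 3.25 and 6.61 against 248 and 277 (-4.66 ± 0.49, adjusted p = 3.5e-05). The transcription factors Cebpb (453, 691, 461 and 478 against 2215 and 3018, -2.42 ± 0.32, adjusted p = 3.3e-04), Id2 (-3.16 ± 0.52, adjusted p = 0.002) and Spic (2 UMIs in the cortical surface, ratio 30.7-fold, 95% counting interval 7.42 to 272) were lower as well. Of 12 tested genes of antigen presentation none was higher and 1, the inhibitory ligand Cd274, was lower (3 UMIs in the cortical surface, ratio 17.3-fold, 95% counting interval 4.94 to 92.4). That call was lost under 5 of 19 alternatives, among them at least 4 macrophage genes and either pair of cortical surface libraries alone, with adjusted p up to 0.483. Cd74 (0.52 ± 0.31, adjusted p = 0.438) and H2-DMa (0.91 ± 0.38, adjusted p = 0.231) did not pass the test, although all 4 cortical surface libraries lay above BA1 and BA2 in both. With BA1 admitted, 2 of 13 (H2-DMa and Ctss) were higher and 2 (Cd274 and Cd40) lower, against 1.39% and 4.0% of all genes. None of 13 general macrophage genes, 8 heat shock genes or 7 iron genes passed it (edgeR, libraries as above), with 2, 0 and 3 of them at an unadjusted p under 0.05, as were 1150 of all 7016 genes (16.4%), and DESeq2 called 1, 0 and 1.

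**Figure D4:**
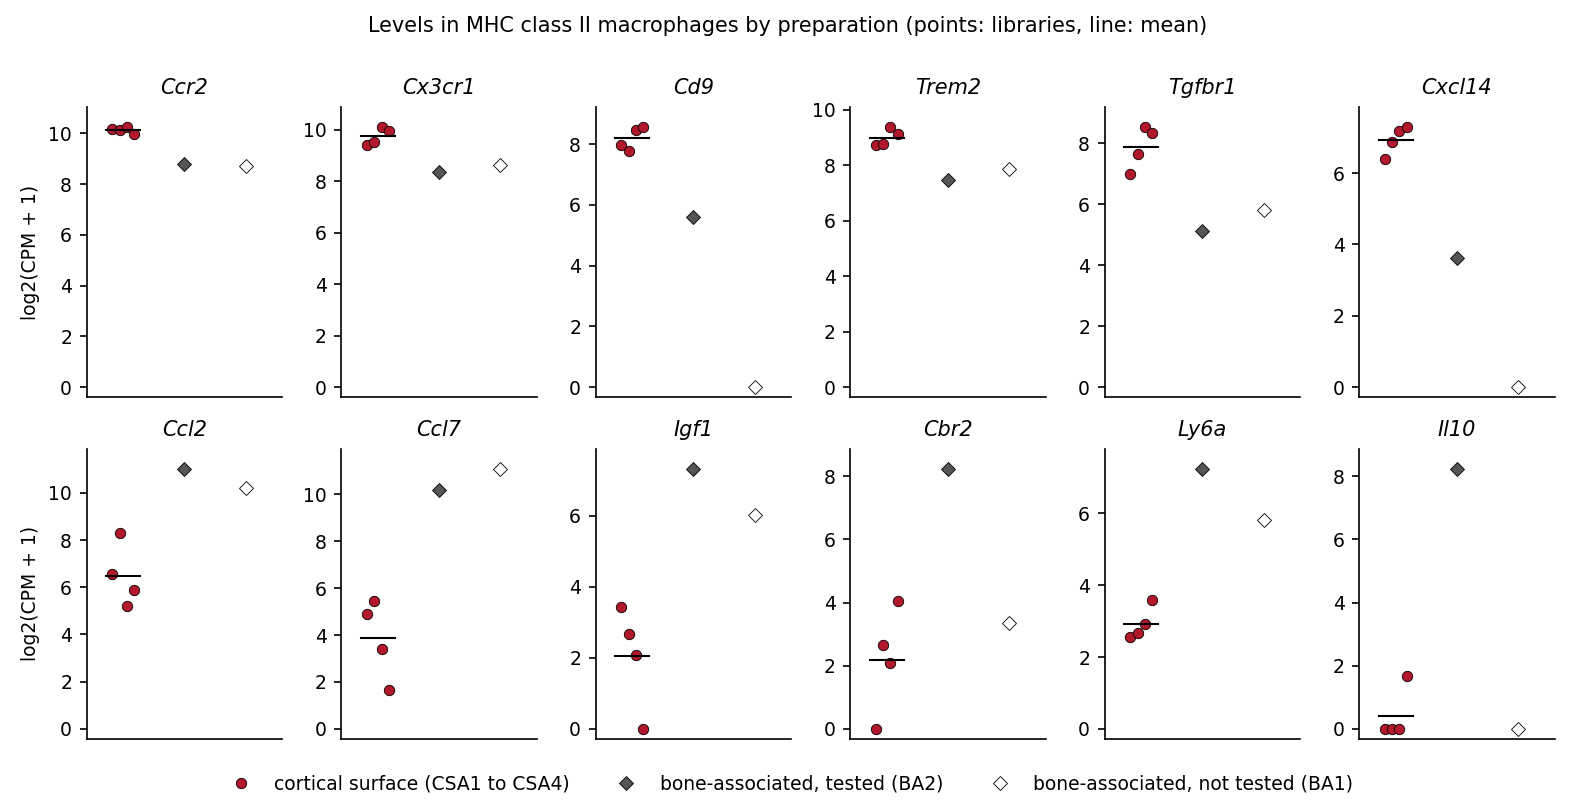
Level of 12 genes as log2(CPM + 1) in the MHC class II macrophages of CSA1 to CSA4 (red circles, from left to right, line: mean), of BA2 (filled diamond) and of BA1 (open diamond, 7 cells, not used in the test). For the 6 genes of the top row both bone-associated libraries lie below the cortical surface libraries, and in the bottom row BA1 goes with BA2 for Ccl2, Ccl7, Igf1 and Ly6a and not for Cbr2 and Il10.

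Whether the difference from Lyve1-positive macrophages was itself unlike in the preparations could be tested only with the 7 Lyve1-positive cells of BA2 admitted. Of 7106 genes, 106 passed the test of that difference (1.49%), 35 with a positive and 71 with a negative difference of the log2 fold changes, cortical surface minus bone-associated. Cd74 was among the former, and the Lyve1-positive cells of BA2 stood at 2638 CPM (difference 3.12 ± 0.62, adjusted p = 0.00524). Igf1 (-4.72 ± 0.66, adjusted p = 9.7e-05), Cbr2 (-4.77 ± 0.54, adjusted p = 3.0e-06) and Ccl7 (-4.18 ± 0.55, adjusted p = 3.5e-05) were among the latter, that is, their log2 fold change was more negative in the cortical surface. All 4 tested hemoglobin genes were among the latter too, as were Acta2 of mural and Col1a2 of mesenchymal cells. Hbb-bs had 3 UMIs in the Lyve1-positive cells of BA2 and 2310 in its MHC class II macrophages, 2254 of them in 1 cell, against 18709 and 6875 in CSA3 and 29516 and 5283 in CSA4. The part of such RNA in the other differences was not tested. These values rest on a single bone-associated library and 7 cells of 1 group, so the spread behind every p came from the cortical surface libraries alone and that between bone-associated libraries was not seen.

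The MHC class II macrophages were compared next with the Cd209a-positive cells, which were also chosen for MHC class II and carry dendritic cell genes. They differed from the MHC class II macrophages in most macrophage and dendritic cell genes whereas Ccr2 and Cd74 did not pass the test. Libraries CSA3, CSA4 and BA2 had at least 10 cells of both, and the fit leaves 2 residual degrees of freedom. Of 7400 tested genes 478 were higher (6.46%) and 414 lower (5.59%) in the MHC class II macrophages. The counts were 257 and 201 with DESeq2 and 219 and 129 without cells that carried a B, T or dendritic cell UMI. The sums of the MHC class II macrophages are those of the comparison with Lyve1-positive macrophages, so these comparisons are not independent.

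Of 13 general macrophage genes 11 were higher and none lower, with a median of 2.57 against -0.01 over all genes. The Cd209a-positive cells were chosen without the 6 macrophage genes, so the direction of this list, which holds C1qc, is not independent of the selection. Csf1r stood at 1153, 986 and 776 CPM in CSA3, CSA4 and BA2 against 237, 123 and 111 in the Cd209a-positive cells (2.70 ± 0.21, adjusted p = 4.3e-06). Cx3cr1 (3.01 ± 0.24) and Adgre1 (2.57 ± 0.27) were higher as well. Among the 10 largest increases were Maf, at 607, 542 and 566 against 10.9, 27.6 and 18.6 (4.81 ± 0.28, adjusted p = 5.5e-07), Apoe, at 14010.0, 13243 and 21947 against 817, 647 and 723 (4.46 ± 0.22, adjusted p = 2.8e-07), and Trem2, at 656, 553 and 176 against 49, 21 and 5.73 (4.44 ± 0.27, adjusted p = 1.0e-06). The groups did not overlap in any of these. The others were the immune receptor Lilra5 (5.60 ± 0.41), Cxcl14 (5.11 ± 0.50), the fatty acid receptor Cd36 (4.82 ± 0.32), the integrin Itga6 (4.82 ± 0.60), Col14a1 (4.54 ± 0.64), Rnase4 (4.31 ± 0.31) and cyclooxygenase Ptgs1 (4.28 ± 0.46). Complement (5 of 6 higher, Cfp lower), iron handling (5 of 5 higher) and lipid and lysosome genes (11 of 15 higher, Lgals3 and Itgax lower) followed.

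Of 12 tested dendritic cell genes 10 were lower and none higher. The dendritic cell lectin Cd209a chose the compared cells and had to be absent from the MHC class II macrophages. The direction of this list is thus not independent of the selection either. Flt3, the receptor that dendritic cells need to develop, stood at 16.2, 4.4 and 0 CPM in the MHC class II macrophages against 54.5, 65.7 and 81.1 (-3.41 ± 0.54, adjusted p = 8.9e-04), and the transcription factor Zbtb46 at 3.25, 2.2 and 5.6 against 51.7, 36.2 and 44.4 (-3.52 ± 0.50, adjusted p = 4.0e-04). The chemokine Ccl17 had 1 UMI in the MHC class II macrophages and 1483 in the Cd209a-positive cells (ratio 473-fold, 95% counting interval 84.7 to 18680.4). Napsa, high against Lyve1-positive macrophages, was lower here, at 58.4, 44 and 95.2 against 708, 760.3 and 724 (-3.51 ± 0.26, adjusted p = 2.6e-06). Among the other large decreases, P2ry10, L1cam, Fcor, Cd7, Adam23, Ddr1, Btla and Sept3, had 0 UMIs in the MHC class II macrophages and were lower by at least 5.95-fold (Sept3) to at least 33.4-fold (P2ry10). Adam23 lost its call without cells that carried a B, T or dendritic cell UMI. The genes with 0 UMIs, and Ccl17, met the detection limit only in the Cd209a-positive cells, so their direction is not independent of that filter.

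Within antigen presentation 4 of 15 tested genes were lower, 3 higher and 8 did not pass the test. Cd74 stood at 28238, 29938 and 23265 CPM against 31821, 30133 and 33033 and did not pass the test (-0.23 ± 0.18, adjusted p = 0.499), nor did H2-DMa (-0.28 ± 0.18, adjusted p = 0.382), H2-DMb1 (-0.26 ± 0.19, adjusted p = 0.433) or Ciita (-0.71 ± 0.24, adjusted p = 0.0768). H2-DMb2, the second beta chain of H2-DM, stood at 13, 22 and 5.6 against 234, 248 and 213 (-4.06 ± 0.32, adjusted p = 4.6e-06), and its counts can be split with those of H2-DMb1. H2-Oa (-4.06 ± 0.42, adjusted p = 3.4e-05) and H2-Ob (-2.89 ± 0.35, adjusted p = 1.3e-04), the chains of the H2-DM inhibitor H2-O, were lower too, and so was the costimulator Cd80 (-1.26 ± 0.32, adjusted p = 0.0196). Lgmn (2.40 ± 0.26, adjusted p = 5.5e-05), Ctss (0.79 ± 0.19, adjusted p = 0.015, lost without CSA3 or CSA4) and Cd86 (0.83 ± 0.22, adjusted p = 0.0221) were higher. Ccr2 stood at 1205, 1004 and 442 against 986, 644 and 463 (0.29 ± 0.19, adjusted p = 0.397) and Runx3 at 77.9, 103 and 106 against 95.3, 88.6 and 200.4 (-0.34 ± 0.25, adjusted p = 0.458), with overlapping ranges. Without BA2, Ccr2 was called higher (0.49, adjusted p = 8.7e-04), and without CSA4 it was at 0.13.

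**Figure D5:**
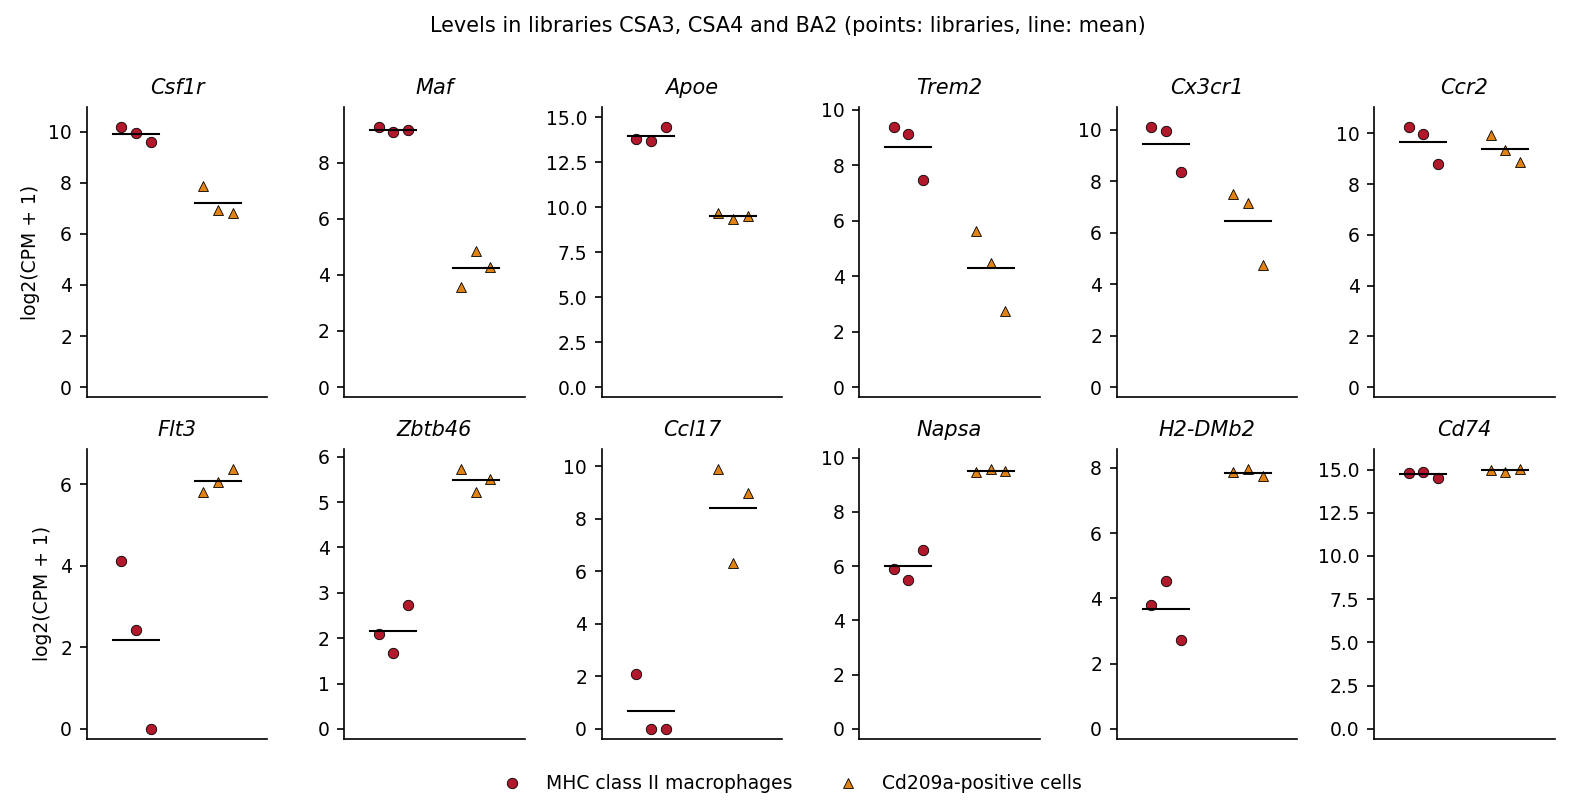
Level of 12 genes as log2(CPM + 1) in the MHC class II macrophages (red circles) and Cd209a-positive cells (orange triangles) of CSA3, CSA4 and BA2, from left to right within a group, with the mean as a line. Csf1r, Maf, Apoe, Trem2 and Cx3cr1 are higher and Flt3, Zbtb46, Ccl17, Napsa and H2-DMb2 lower in the macrophages, and Ccr2 has overlapping ranges.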

How the data were processed

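Raw UMI counts per gene and cell barcode were deposited by the authors as 1 filtered 10x matrix a library, aligned to mm10. The submitters' processing notes name Cell Ranger 3 and the matrix headers Cell Ranger 6.1.2. The counts were used as deposited. Cells were selected as described above, their UMIs were summed per library and cell group, and sums of at least 10 cells were tested with edgeR 4.0.16 in R 4.3.3 (estimateDisp, glmQLFit and glmQLFTest, TMM) over genes with a UMI in more than 10% of cells of at least 1 of the groups compared. The 13 selecting genes and mitochondrial genes stayed in the totals but were not tested. Genes were called at a Benjamini-Hochberg adjusted p under 0.05. DESeq2 1.42.0 and the other alternatives are given in the closing section. Doublets were scored against simulated pairs of cells (scikit-learn 1.9.0) and left out only in an alternative. The scripts were tested on simulated data with 200 changed genes.

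The cells and the gene lists were chosen with earlier results of these data known. Genes named are list members (the most abundant and those called), and, for each comparison across genes, the 10 largest fold changes per direction among called genes with the same direction in every library (between preparations, no overlap with BA2) and 50 or more UMIs in the group where they were higher. Libraries held 951, 1765, 5207 and 5602 barcodes (CSA1 to CSA4) and 1099 and 2936 (BA1 and BA2), with 8408685, 16998497, 55385796, 56169736, 12041325 and 27511208 UMIs in that order. The sums of MHC class II macrophages held far fewer (198234 UMIs in CSA1), and intervals and limits for 0 UMIs (3 UMIs) cover counting error only. Sums of different libraries differed by more than sampling noise (chi-square per degree of freedom 2.06 to 10.3), so none was counted as a repeat. P-values measure the spread between pooled libraries. Of 17 antigen presentation genes, Ifi30 was not analysed here. Results of some genes are not reported here.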

Additional observations from a re-analysis of the deposited data

Results flagged for a closer look

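In 6 of 96 measures (genes with at least 20 UMIs and the shares of cells), 1 cortical surface library lay far from the other 3 in the MHC class II macrophages, each time in a gene (Dixon's test, which chance passes in about 1 group of 20). CSA2 was high in the inhibitory lectin Clec12a (707 CPM against 458 to 476) and the transcription factor Cebpb (691 CPM against 453 to 478). It was also high in the monocyte genes Ly6c2 (90.4 CPM against 0 to 11) and Plac8 (170.2 CPM against 0 to 6.49), each found in 1 cell of that library. CSA1 was high in lipoprotein lipase Lpl (278 CPM against 58.5 to 85.9) and the integrin Itgax (107 CPM against 16 to 28.6).

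For 21 of 55 genes the log2 fold change of MHC class II over Lyve1-positive macrophages differed between the preparations in the edgeR interaction test (adjusted p under 0.05, BA2 with 7 Lyve1-positive cells), against 106 of all 7106 genes (1.49%). The 55 are genes named above, most of them because they were called, so the shares are not compared. The difference, cortical surface minus bone-associated, was positive for the antigen presentation genes Cd74 (3.12) and H2-DMa (3.65), the lectin Clec12a (2.87), the chemokines Ccl6 (2.13), Cxcl2 (3.73) and Cxcl16 (2.40) and the cytokine Il1b (2.70). It was negative for the Lyve1-associated genes Cd163 (-2.83), Folr2 (-3.89), F13a1 (-1.79), Cbr2 (-4.77), Igf1 (-4.72), Selenop (-1.46) and Maf (-1.52). It was also negative for the chemokines Ccl2 (-2.98), Ccl7 (-4.18), Ccl8 (-6.23) and Ccl12 (-1.94), for the lysosomal genes Cd63 (-1.56) and Ctsd (-1.89) and for Fcrls (-2.12). With 1 bone-associated library, library and preparation cannot be told apart.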

How the results depend on the processing

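The share of MHC class II macrophages kept its direction under every alternative tried, with a difference between preparations of 1.29 to 2.99 percentage points of kept cells and of -26.6 to -45.6 points of macrophages. Counts of called genes (higher, then lower) moved more. Against Lyve1-positive macrophages, 759 and 699 became 432 and 374 with DESeq2, 240 and 294 with cells thinned to 1500 UMIs (fewer UMIs), and 464 and 1345 with totals without hemoglobin genes and no TMM. Leaving out each library gave 542 to 670 and 514 to 622. Between preparations, 51 and 210 became 18 and 46 with DESeq2, 81 and 443 with no filter beyond 1 UMI, 2 and 34 with thinned cells, 13 and 128 without cells that carried UMIs of other lineages, 0 and 0 with CSA3 and CSA4 alone (584 and 760 at an unadjusted p under 0.05) and 58 and 223 with CSA1 and CSA2 alone. Genes higher in the cortical surface were 32 with at least 4 of the 6 macrophage genes required and 103 with libraries of at least 5 cells. Leaving out each cortical surface library gave 20 to 86 and 141 to 350. The counts without CSA2 were 86 and 350, and without CSA3 and CSA4 22 and 20 genes were higher. Against Cd209a-positive cells, 478 and 414 became 257 and 201 with DESeq2, 141 and 110 with thinned cells and 219 and 129 without cells of other lineages, 642 were lower with no filter, and leaving out each library gave 345 to 548 and 235 to 572 (235 lower without CSA3). The cause of these moves was not tested.

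Of 195 results for named genes, 112 kept their direction and call under every alternative, 68 lost a call under at least 1, and 4 changed sign, none of which was called as reported. Those were Tnf against Lyve1-positive macrophages (0.39, with -0.39 to 1.73 when each library was left out, the lowest without CSA2 and the highest, then called, without CSA1, and -0.14 without the library block), S100a4 between preparations (1.42 with at least 4 macrophage genes), Ccr2 against Cd209a-positive cells (-0.12 without cells of other lineages) and Il1b between preparations (0.023 with the replicate block). Whether replicate numbers pair the libraries could not be told. The r of deviations over 1000 genes was 0.48 for CSA1 and BA1 and -0.29 for CSA2 and BA2. With 2 bone-associated libraries, each r with BA2 is by construction minus that with BA1. The replicate block could be fitted only with libraries of at least 5 cells, and then gave 125 genes higher and 167 lower. The block with at least 10 cells, the comparison of preparations without BA2 and the difference between preparations with at least 10 cells of both groups could not be run. The alternatives that allowed UMIs of P2ry12 and Tmem119, split libraries by hemoglobin, dropped TMM or took libraries of at least 5 cells were chosen after seeing the data. CSA1 and CSA2 held 16 and 18 of the cells, and ratios of genes with a few UMIs have wide counting intervals.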

Other observations

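Genes were also looked at together in single MHC class II macrophages. A UMI of Cd163 and of F13a1, genes of the Lyve1-associated list, was found in 16 of 189 cells without a Lyve1 UMI, 7 of 152 (4.61%) in the cortical surface and 9 of 37 (24.3%) in the bone-associated tissue. The 40 cells with a Cxcl14 UMI all had a Ccr2 UMI, and 38 of them came from the cortical surface. Ms4a7 and Ccr2 were found together in 70 of the 90 cells with Ms4a7. A UMI of Ciita was found in 46.7% of cortical surface and 43.2% of bone-associated cells. These are shares of cells with at least 1 UMI, and they depend on depth, which was not the same in all libraries.

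A single CSA1 cell held 22 UMIs of the proliferation gene Top2a, and the other cortical surface libraries held 2, 1 and 1. A single BA2 cell held 23 UMIs of the endothelial gene Cdh5. In CSA4 and BA2, as in CSA3, single cells held most Hbb-bs UMIs, 4656 of 5283 and 2254 of 2310.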
